A study of Homo sapiens with 2 samples.

Results

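The p53 pathway genes described here are 32 named genes listed as controllers of p53 or as its transcriptional targets. Not every listed gene, CCNG2 and SERTAD1 among them, need be a p53 target. The genes were followed in HN6, a human tongue squamous cell carcinoma cell line. They were taken by symbol from a count table of 25534 genes, and all 32 were found. A gene was examined when both libraries together held at least 20 counts, which kept 31 of the 32 and 16669 genes in all. Cells of the ZNF582 library carried a transfected plasmid that overexpressed ZNF582, a zinc finger protein of the KRAB class. Cells of the control library were HN6 cells of wild-type genotype, and the labels do not say whether these received an empty vector. Each group had 1 library, which leaves every difference below without a replicate check, and no p-value was computed. The data cannot separate an effect of ZNF582 from any other difference between these 2 cultures. The labels and processing notes give neither the p53 status of HN6 nor whether the cells were a pool or 1 clone. In bulk RNA, fewer cells of a kind and less RNA per cell cannot be told apart.

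p53 is a transcription factor that is held at a low level in unstressed cells by MDM2, which marks it for degradation, and by MDM4, which blocks its activating domain. DNA damage and other stresses release it, and it then binds paired 10-base elements near genes that stop the cell cycle, repair DNA, adjust metabolism or start cell death. Several of its targets, MDM2 and PPM1D among them, close feedback loops that switch it off again, and squamous carcinomas often carry an altered p53.

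Some of these genes carry a 10-base unit of the p53 element near their start, single in most of them and paired in DDB2. Their sequences are shown because several of these genes lay at the edges of the distribution described below. RefSeq windows of 300 bases (GRCh38.p14), from 250 bases before the start of a gene to 50 after it, were found for 29 of the 32 members. They did not include PHLDA3, RRM2B or TP53INP1. The p53 decamer, the 10-base consensus that makes up each part of a p53 site, was searched without mismatches, and it reads the same on either strand. It was found in at least 1 window of 7 of the 29 members (24.1%), namely AEN, DDB2, EI24, FDXR, PLK2, RPS27L and SESN1, against 833 of 10826 examined genes (7.69%). A paired site, with at most 13 bases between 2 decamers, was found in 1 member, DDB2, against 3 examined genes (0.0277%). Since the members were chosen partly as known p53 targets, this share describes how the list was made. By window, it was found in 7 of the 38 windows of members (18.4%), against 5.78% of those of examined genes. Members with a decrease of 1.5-fold or more had it in 3 of 7 windows (42.9%). These 7 windows came from only 3 genes, DDB2, FDXR and SESN1. Members with an increase of that size had it in 2 of 7 windows (28.6%; PLK2 and AEN), with 1 window a gene. By gene, the shares were 3 of 3 for a decrease and 2 of 7 for an increase. These counts are too small to set the directions apart. The windows of these 5 genes that hold it follow, with decamers in capitals. Window starts are those of RefSeq and can differ from the spans in the count table.
DDB2 (chr11:47214724-47215023, plus strand): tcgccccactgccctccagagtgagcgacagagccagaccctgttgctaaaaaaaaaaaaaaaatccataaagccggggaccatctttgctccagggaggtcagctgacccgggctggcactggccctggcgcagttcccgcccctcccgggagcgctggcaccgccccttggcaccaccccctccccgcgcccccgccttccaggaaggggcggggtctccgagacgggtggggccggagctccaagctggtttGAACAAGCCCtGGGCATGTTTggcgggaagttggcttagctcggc
FDXR (chr17:74872945-74873244, minus strand): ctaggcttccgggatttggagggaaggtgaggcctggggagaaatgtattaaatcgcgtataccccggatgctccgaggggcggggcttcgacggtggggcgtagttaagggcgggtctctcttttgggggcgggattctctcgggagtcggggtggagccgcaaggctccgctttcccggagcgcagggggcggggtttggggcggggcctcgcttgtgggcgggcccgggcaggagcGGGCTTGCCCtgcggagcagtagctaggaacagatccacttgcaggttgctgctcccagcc
SESN1 (chr6:109008939-109009238, minus strand): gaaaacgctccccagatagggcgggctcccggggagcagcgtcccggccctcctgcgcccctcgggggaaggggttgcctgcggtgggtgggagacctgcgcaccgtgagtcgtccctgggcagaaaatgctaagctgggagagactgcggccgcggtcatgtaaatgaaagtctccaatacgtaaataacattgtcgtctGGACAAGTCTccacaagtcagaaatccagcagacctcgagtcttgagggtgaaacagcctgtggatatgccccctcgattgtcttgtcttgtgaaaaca
PLK2 (chr5:58460037-58460336, minus strand): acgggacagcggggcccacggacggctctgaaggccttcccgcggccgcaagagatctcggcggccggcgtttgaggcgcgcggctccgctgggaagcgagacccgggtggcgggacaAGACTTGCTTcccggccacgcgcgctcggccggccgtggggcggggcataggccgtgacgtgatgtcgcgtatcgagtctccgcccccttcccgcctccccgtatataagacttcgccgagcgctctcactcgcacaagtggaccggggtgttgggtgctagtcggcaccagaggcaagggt
AEN (chr15:88621090-88621389, plus strand): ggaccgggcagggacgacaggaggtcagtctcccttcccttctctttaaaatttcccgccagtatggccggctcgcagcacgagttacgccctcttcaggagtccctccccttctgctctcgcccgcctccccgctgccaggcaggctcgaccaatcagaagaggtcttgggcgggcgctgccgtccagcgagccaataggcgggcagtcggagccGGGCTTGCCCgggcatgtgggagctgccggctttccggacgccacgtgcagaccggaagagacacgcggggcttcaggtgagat
In DDB2 the decamers GAACAAGCCC and GGGCATGTTT occupied bases 256 to 265 and 267 to 276 of the window, counted from its 5′ end, with 1 base between them. FDXR and AEN held the same decamer, GGGCTTGCCC, at bases 240 to 249 and 217 to 226 of their windows. No decamer was found in the windows of MDM4, MDM2, PPM1D, CDKN1A, BTG2, SERTAD1, SESN2 or KITLG, which says only that these letters were not in these windows.

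The ZNF582 library held 17792172 counts and the control library 14765244. ZNF582 itself had 277387 counts in the ZNF582 library, against 14 in the control library, in keeping with the labels. All 14 squamous and epithelial markers reached 20 counts, with 118560 counts summed in the ZNF582 library, against 85465 in the control library, although KRT14 had only 19 counts in the ZNF582 library, against 7 in the control library. After scaling, 3 of the 14 were higher by the 2-fold rule given below and 0 were lower, beside 4.25% and 5.02% of all examined genes. The 3 were KRT17 with a ratio of 3.89, LAMB3 of 2.62 and KRT6A of 2.13. The median log2 fold of the 14 was 0.46, with 9 above 0 and 5 below, CDH1 lowest at -0.54. Of markers of other cell types, 1 of 6 for leukocytes, 2 of 5 for endothelium, 3 of 6 for fibroblasts and 2 of 5 for melanocytes reached 20 counts, with sums between 45 and 266 counts in the ZNF582 library and between 48 and 337 in the control library. Of these, the fibroblast markers LUM (10 counts in the ZNF582 library, against 36 in the control library) and PDGFRB (49 counts in the ZNF582 library, against 96 in the control library) were lower, and the endothelial marker VWF (16 counts in the ZNF582 library, against 5 in the control library) was higher. The part of these markers in the results below was not tested. No molecular identifiers are described for these reads, so each interval below is a 95% interval that covers counting error only.

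Ratios of the members lay on both sides of 1, with a median near no difference and 2 genes past a 2-fold rule. A gene was called when its scaled ratio was at least 2-fold and the interval excluded 1. By this rule 1 of 31 members was higher, MDM4, and 1 was lower, FDXR, together 2 of 31 (6.45%). Over all 16669 genes the rule called 9.27%, with 4.25% higher and 5.02% lower, so the share of members was near the background. Of all genes 709 were higher and 836 lower, a split that moved to 565 higher and 1097 lower when counts were divided by library totals alone, and members kept 1 call in each direction, again MDM4 and FDXR. The median log2 fold of the members was 0.06, against -0.01 for all examined genes, with 18 members above 0 and 13 below. The counting interval lay above 1 in 13 members, below 1 in 13 and held 1 in 5. Over all 16669 genes it lay above 1 in 4606, below 1 in 4360 and held 1 in 7703. Members had a median of 933 counts in both libraries together, against 557 for all examined genes, and more counts give narrower intervals. The median size of the log2 fold, whatever its sign, was 0.41 for members, against 0.32 for all examined genes. Scaling by library totals alone moved every log2 fold down by 0.11 and put CDKN1A, PHLDA3, TP53INP1 and TRIAP1 below 0 as well. The intervals of TP53I3 and BTG1, which lay above 1, began at log2 folds of 0.0005 and 0.07, within that shift. The even split of intervals above and below 1 therefore depended on scaling. At 1.5-fold the rule took 7 of 31 members as higher (22.6%), beside 9.9% of all genes, and 3 as lower (9.68%), beside 10.9%. The 2 directions together made 10 of 31 members (32.3%), beside 20.8% of all genes. The 7 were MDM4, KITLG, PLK2, BTG2, SERTAD1, SESN2 and AEN, and the 3 were FDXR, DDB2 and SESN1. This split depended on scaling. With library totals alone SESN2 (log2 fold 0.57) and AEN (0.52) fell under 1.5-fold. NINJ1 (-0.62) and RPS27L (-0.60) then passed 1.5-fold in the lower direction. Nothing particular to the members is read from these shares, since with 1 library in each group they have no test. The authors' deposited table also called MDM4 up and FDXR down, and no other member.

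**Figure D1:**
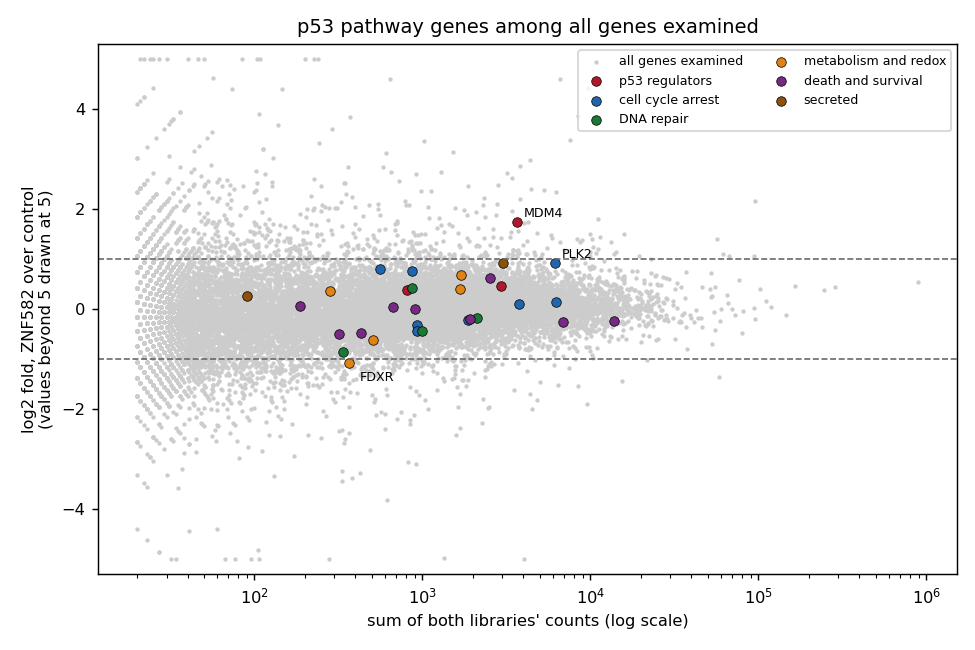
Log2 fold of the ZNF582 library over the control library (vertical axis, values beyond 5 drawn at 5) against the sum of both counts (horizontal log axis) for 16669 examined genes in grey, with the 31 members coloured by role and dashed lines at 2-fold. MDM4 at 1.74 and FDXR at -1.07 are the 2 members outside the dashed lines, and the other members lie between them.

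Levels are given as CPM per kilobase of merged exons, that is, counts scaled to library size with TMM factors and divided by exon length, because the deposited FPKM divides by another length that is examined further on. On this scale the members spanned 1.04 to 91.2 in the ZNF582 library and 0.998 to 108 in the control library. PERP, a membrane protein of desmosomes that p53 induces, was the highest in both, and TP53INP1, a promoter of p53 phosphorylation, the lowest in both. GDF15, with 91 counts in all, was the least counted member examined. SPATA18, a mitochondrial quality control gene, had 6 counts in the ZNF582 library, against 3 in the control library, and fell under the minimum.

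**Figure D2:**
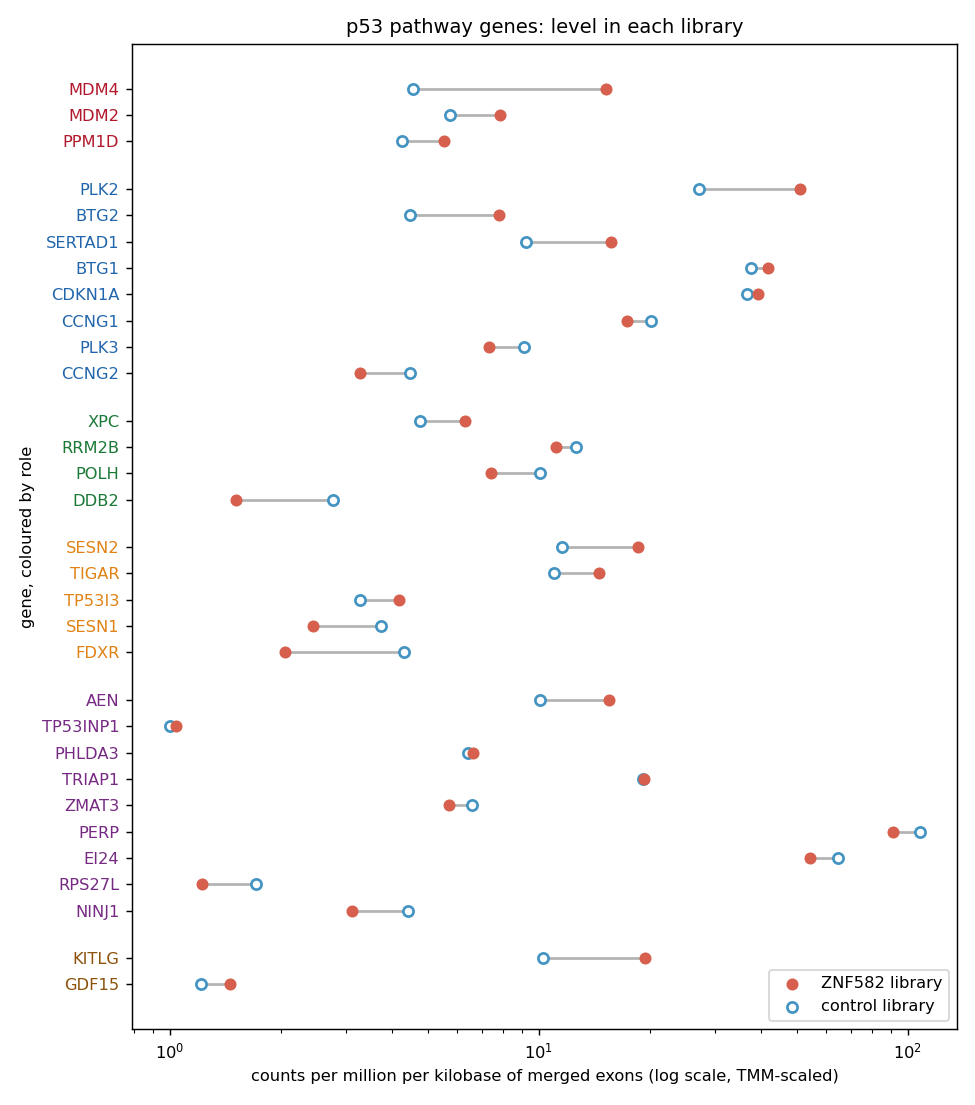
Level of each of the 31 examined members in the ZNF582 library (filled red) and the control library (open blue), in CPM per kilobase of merged exons on a log axis, with genes grouped and coloured by role. The gap between the points is widest for MDM4, at 15.2 in the ZNF582 library, against 4.57 in the control library.

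All 3 regulators of p53 had ratios above 1, and 1 of them passed the 2-fold rule, beside 9.27% of all genes. Each role holds too few genes for such a count to be set against that share. MDM4 (ENSG00000198625, chromosome 1, 204516379 to 204558120, plus strand, GRCh38), the inhibitor that masks the activating domain of p53, had 2869 counts in the ZNF582 library, against 773 in the control library. Its level was 15.2 in the ZNF582 library, against 4.57 in the control library. The ratio was 3.33 (3.07 to 3.61), higher than in 98.5% of examined genes. MDM2 (chromosome 12, 68808172 to 68850686, plus strand), the ubiquitin ligase that drives p53 degradation and is itself a p53 target, had 1786 counts in the ZNF582 library, against 1171 in the control library. Its ratio of 1.37 (1.27 to 1.47) stayed under the rule. PPM1D, the phosphatase WIP1 that dampens p53 and its activating kinases, had 477 counts in the ZNF582 library, against 330 in the control library, a ratio of 1.3 (1.12 to 1.5). The interval of MDM4 lay above those of MDM2 and PPM1D, which overlapped each other.

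Of the 8 genes grouped under cell cycle arrest, 0 passed the 2-fold rule, beside 9.27% of all genes, and their ratios ran in both directions. The name is that of the group, and not every gene in it, SERTAD1 and CCNG1 among them, need act in arrest. CDKN1A (chromosome 6, 36676460 to 36687339, plus strand), which encodes the cyclin-dependent kinase inhibitor p21 and is the best known p53 target for arrest, had 2043 counts in the ZNF582 library, against 1720 in the control library. Its level was 39.1 in the ZNF582 library, against 36.7 in the control library, and the ratio of 1.07 (0.999 to 1.14) had an interval that held 1 and turned below 1 when library totals alone were used. PLK2 (chromosome 5, 58453982 to 58460260, minus strand), a polo-like kinase of the stress response, had 4155 counts in the ZNF582 library, against 1982 in the control library. The ratio was 1.88 (1.78 to 1.99), just under the rule. BTG2, an antiproliferative partner of mRNA deadenylation, had 369 counts in the ZNF582 library, against 189 in the control library, a ratio of 1.75 (1.47 to 2.10). SERTAD1, a cofactor that binds CDK4 and E2F complexes, had 567 counts in the ZNF582 library, against 299 in the control library, a ratio of 1.70 (1.48 to 1.96). BTG1, a relative of BTG2, stood at a ratio of 1.11 (1.05 to 1.16) on 3459 counts in the ZNF582 library, against 2807 in the control library, a level of 41.6 in the ZNF582 library, against 37.7 in the control library. On the other side were CCNG2, an unconventional cyclin linked to arrest, with 420 counts in the ZNF582 library, against 513 in the control library (log2 fold -0.45), PLK3 and CCNG1. The kinase gene PLK3 had 436 counts in the ZNF582 library, against 488 in the control library (log2 fold -0.32). CCNG1, a cyclin that recruits a phosphatase to MDM2, had 920 counts in the ZNF582 library, against 956 in the control library (log2 fold -0.21). The intervals of these 3 excluded 1, and all 3 lay within 1.5-fold, unlike PLK2, BTG2 and SERTAD1.

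**Figure D3:**
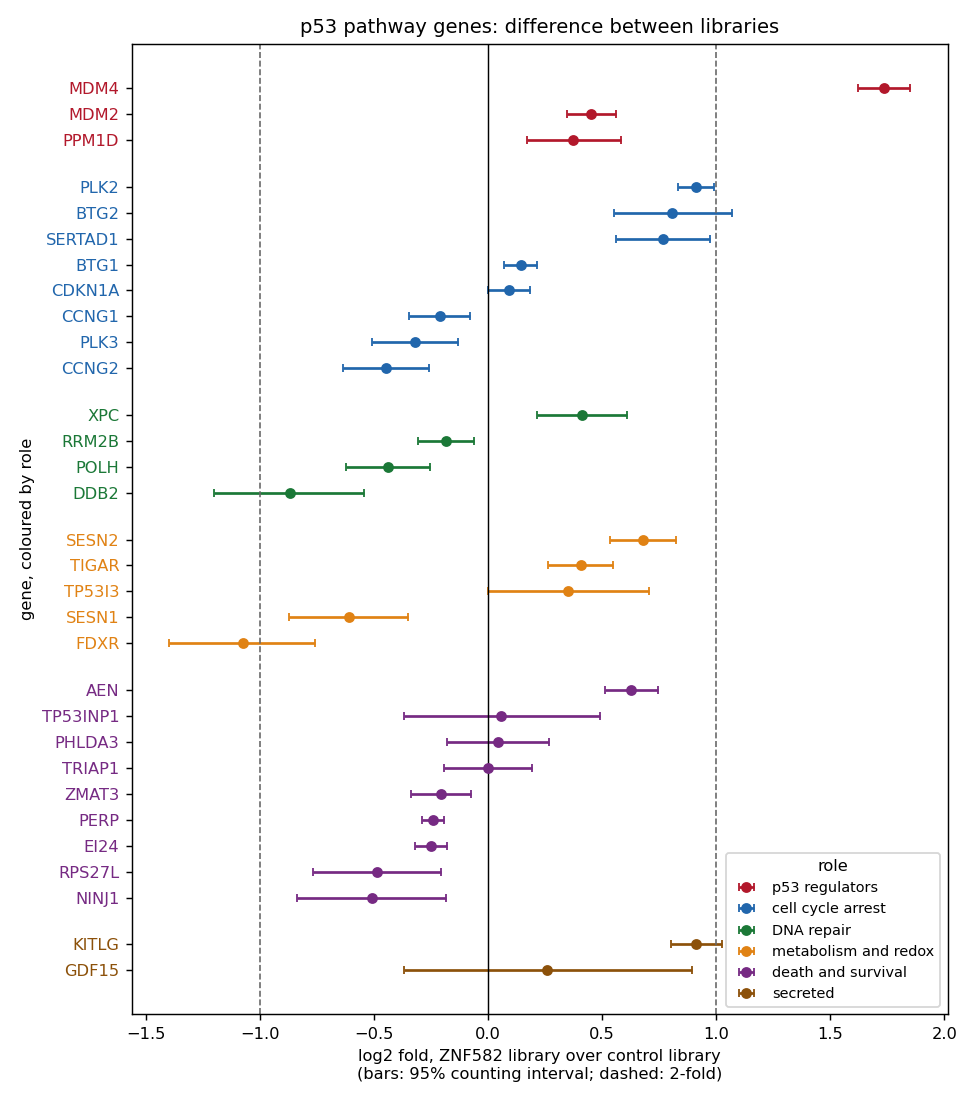
Log2 fold of the ZNF582 library over the control library for the 31 examined members, grouped by role, with bars for the 95% counting interval and dashed lines at 2-fold. MDM4 and FDXR lie beyond the dashed lines, and regulators all lie above 0 whereas every other role with more than 2 genes has members on both sides of 0.

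Among 4 repair genes, 3 had ratios below 1 and 1 above, and 0 passed the 2-fold rule, beside 9.27% of all genes. DDB2 (chromosome 11, 47214465 to 47239240, plus strand), the subunit that recognises ultraviolet lesions in chromatin, had 127 counts in the ZNF582 library, against 208 in the control library. Its level was 1.52 in the ZNF582 library, against 2.77 in the control library, 1.83-fold lower (1.46 to 2.29). XPC, which recognises the same class of lesion in nucleotide excision repair, went the other way, with 519 counts in the ZNF582 library, against 350 in the control library, a ratio of 1.33 (1.16 to 1.53). POLH, the polymerase that copies past ultraviolet lesions, had 450 counts in the ZNF582 library, against 547 in the control library (log2 fold -0.44). RRM2B, the p53-induced subunit of ribonucleotide reductase, had 1054 counts in the ZNF582 library, against 1074 in the control library (log2 fold -0.18). The damage sensors DDB2 and XPC therefore differed in direction, with intervals on opposite sides of 1.

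Of the 5 genes of metabolism and redox balance, 1 passed the 2-fold rule, beside 9.27% of all genes. FDXR (ENSG00000161513, chromosome 17, 74862497 to 74873031, minus strand), the ferredoxin reductase that supplies electrons to mitochondrial cytochromes and iron-sulfur cluster assembly, had 126 counts in the ZNF582 library, against 238 in the control library. Its level was 2.05 in the ZNF582 library, against 4.31 in the control library, 2.11-fold lower (1.69 to 2.63), and the interval reached below 2. SESN2, a sestrin that restrains mTORC1 when leucine is short, had 1094 counts in the ZNF582 library, against 613 in the control library, a ratio of 1.60 (1.45 to 1.77). Its relative SESN1 had 214 counts in the ZNF582 library, against 293 in the control library, 1.53-fold lower (1.28 to 1.83). TIGAR, a phosphatase that lowers fructose-2,6-bisphosphate and so slows glycolysis, stood at 999 counts in the ZNF582 library, against 676 in the control library, a ratio of 1.33 (1.20 to 1.46). TP53I3, a quinone oxidoreductase, had 165 counts in the ZNF582 library, against 116 in the control library, with a ratio of 1.28 whose interval ended at 1.63 and began at 1.0.

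Of 9 examined death and survival genes, 0 passed the 2-fold rule, beside 9.27% of all genes. Of the 9, 8 lay within 1.5-fold, as did 12273 of all 16669 genes. The interval lay above 1 in 1 of the 9 and below 1 in 5. PERP had 6693 counts in the ZNF582 library, against 7097 in the control library (log2 fold -0.24). EI24, a membrane protein of the endoplasmic reticulum, had 3308 counts in the ZNF582 library, against 3529 in the control library (log2 fold -0.25). These were the most heavily counted genes of the role, and both intervals lay below 1. AEN, an exonuclease of the apoptotic response, was the exception, with 1600 counts in the ZNF582 library, against 928 in the control library, a ratio of 1.55 (1.43 to 1.68). TRIAP1, which carries phosphatidic acid in mitochondria and opposes apoptosis, had 474 counts in the ZNF582 library, against 425 in the control library, a ratio of 1.0 (0.876 to 1.14). PHLDA3, a repressor of AKT, had 356 counts in the ZNF582 library, against 310 in the control library (ratio 1.03), and TP53INP1 had 101 counts in the ZNF582 library, against 87 in the control library (ratio 1.04). The intervals of these 3 genes held 1, and under library totals alone all 3 ratios were below 1. NINJ1, which drives membrane rupture in dying cells, had 141 counts in the ZNF582 library, against 180 in the control library (log2 fold -0.51). ZMAT3, an RNA-binding splicing regulator, had 945 counts in the ZNF582 library, against 977 in the control library (log2 fold -0.20). RPS27L, a ribosomal protein paralogue, had 191 counts in the ZNF582 library, against 240 in the control library (log2 fold -0.49). RPS27, the ribosomal protein that RPS27L resembles, had 104 counts in the ZNF582 library, against 73 in the control library, so its ratio of 1.28 (0.939 to 1.75) had an interval that held 1. The RPS27L to RPS27 count ratio was 1.84 in the ZNF582 library, against 3.29 in the control library, 0.559 of the control value (0.385 to 0.808). It is not a ratio of transcript levels. Per kilobase of merged exons RPS27 was at 5.87 in the ZNF582 library, against 4.59 in the control library, and RPS27L at 1.22 against 1.71. RPS27 also had few counts beside the ribosomal protein gene RPL11, with 2509 in the ZNF582 library, against 2233 in the control library. The reason was not tested.

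The secreted factors were the last role. KITLG (chromosome 12, 88492793 to 88580851, minus strand), the ligand of the KIT receptor, had 2055 counts in the ZNF582 library, against 979 in the control library. Its level was 19.4 in the ZNF582 library, against 10.3 in the control library, and the ratio of 1.88 (1.74 to 2.03) stayed under 2 although its interval crossed it. GDF15, a stress cytokine of the TGF-beta family, had 52 counts in the ZNF582 library, against 39 in the control library. Its ratio of 1.20 (0.775 to 1.86) was not distinguishable from 1 at this depth.

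Close relatives within the list differed in their ratios, and this comparison does not depend on scaling between libraries because it uses counts within each. The MDM4 to MDM2 count ratio was 1.61 in the ZNF582 library, against 0.66 in the control library, a change of 2.43-fold (2.18 to 2.72). The PLK2 to PLK3 count ratio was 9.53 in the ZNF582 library, against 4.06 in the control library, a change of 2.35-fold (2.04 to 2.71). The SESN2 to SESN1 count ratio was 5.11 in the ZNF582 library, against 2.09 in the control library, a change of 2.44-fold (1.99 to 3.01). The interval of the sestrins reached 1.99. Each pair is written with the gene of the higher fold first, so the shared direction comes from the order. BTG2 to BTG1 changed less, by 1.58-fold (1.32 to 1.91), and CCNG1 to CCNG2 by 1.18-fold (1.001 to 1.38). The interval of CCNG1 to CCNG2 thus began barely above 1. The pairs were set side by side for their shared ancestry, and 0 words of 50 bases were shared between the annotated transcripts of any of these 5 pairs.

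**Figure D4:**
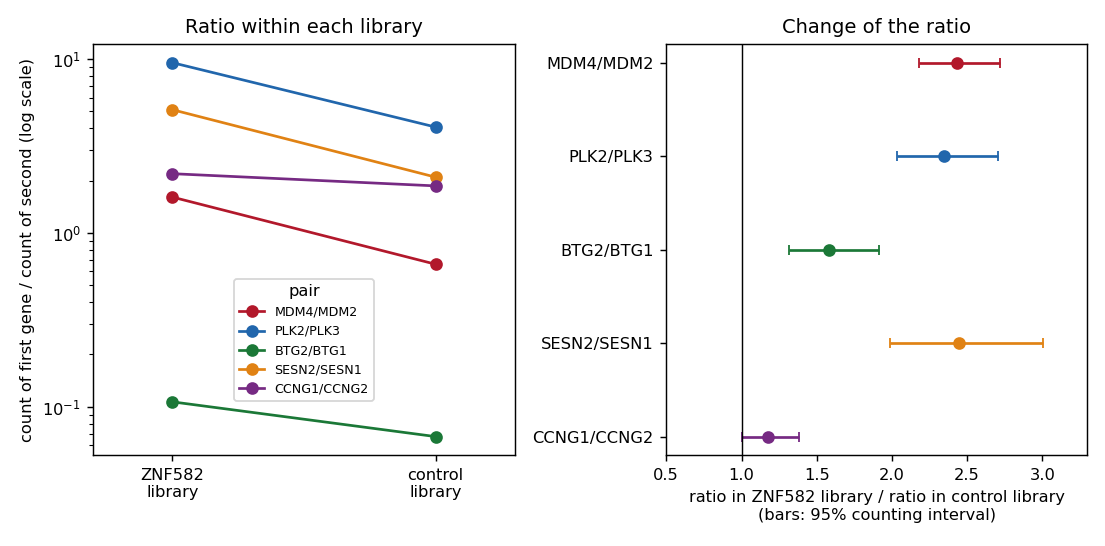
Left, count of the first gene divided by count of the second for 5 pairs of related members, on a log axis, in the ZNF582 library and the control library. Right, the ratio in the ZNF582 library divided by that in the control library with 95% counting intervals, from 2.44 for SESN2/SESN1 down to 1.18 for CCNG1/CCNG2.

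Other genes known as p53 targets lay on both sides of no difference. Of 67 examined genes in 4 further lists, 1 was higher and 7 were lower by the 2-fold rule, beside 4.25% and 5.02% of all genes, and the median log2 fold was 0.06. GADD45A, a stress sensor that binds PCNA, had 4547 counts in the ZNF582 library, against 785 in the control library, a ratio of 5.20 (4.82 to 5.61). PMAIP1, which encodes the BH3 protein NOXA, had 385 counts in the ZNF582 library, against 836 in the control library, 2.42-fold lower (2.14 to 2.74). PIDD1, the platform of the PIDDosome, was 2.58-fold lower on 58 counts in the ZNF582 library, against 134 in the control library, and its exons overlap RPLP2 and PANO1. TSKU, a secreted leucine-rich protein, had 217 counts in the ZNF582 library, against 447 in the control library (2.30-fold lower), and FAM210B had 93 counts in the ZNF582 library, against 184 in the control library (2.21-fold lower). The remaining 3 called genes, CPT1C, ACER2 and ORAI3, were lower on at most 51 counts each and were named after their values were seen. The apoptosis genes BAX (ratio 1.09, 0.955 to 1.23) and BBC3, which encodes PUMA (ratio 1.17, 0.706 to 1.94), had intervals that held 1. By list, the median log2 fold was 0.11 for 14 death genes, 0.19 for 14 arrest and repair genes, -0.32 for 15 metabolic genes and 0.03 for 24 membrane and signalling genes.

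Genes that act on p53 from upstream, and genes that p21 represses through the DREAM complex, were also described as lists. Of 24 upstream genes, 0 passed the 2-fold rule, beside 9.27% of all genes. Their median log2 fold was 0.15, and values ran from -0.72 to 0.77. The list also holds TP73 and TP63, which are relatives of p53. TP73 was the lowest, on 44 counts in the ZNF582 library, against 65 in the control library, and TP63 stood at 0.49. SIRT1, a deacetylase of p53, was the highest at a ratio of 1.70 (1.54 to 1.87), followed by the ubiquitin ligase gene RCHY1 at 1.66 (1.51 to 1.83). Of 20 genes repressed through p21 and DREAM, 15 lay above 0 and 5 below, with a median of 0.22. Over all examined genes 8249 lay above 0 and 8420 below. NEK2 and TOP2A, both at 0.08, lay nearer 0 than the 0.11 by which library totals alone lowered every log2 fold. The split of this list was not tested. By the 2-fold rule 1 of these 20 genes was called, beside 9.27% of all genes. This was BIRC5, which encodes survivin, with 329 counts in the ZNF582 library, against 901 in the control library, 3.05-fold lower (2.69 to 3.47).

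**Figure D5:**
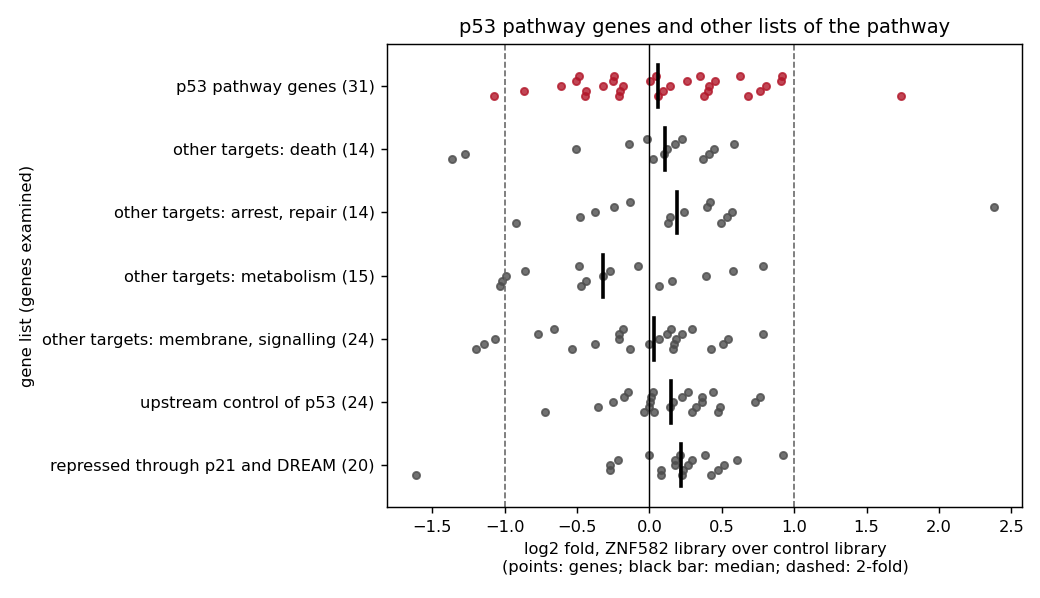
Log2 fold of the ZNF582 library over the control library for the 31 members (red) and for the examined genes of 6 other lists of the pathway (grey), with black bars at the medians and dashed lines at 2-fold. Every median lies between -0.32 and 0.22, and single genes such as GADD45A at 2.38 and BIRC5 at -1.61 lie apart from their lists.

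The deposited FPKM values understate genes with many annotated isoforms, which bears on how members rank. The length behind each FPKM, recovered from the count, the FPKM and the library total, was within 1% of the summed length of all distinct exons in GENCODE 29 for 94.7% of 22921 genes, so that overlapping exons were counted repeatedly. It was within 1% of the merged exon length for 35.9%. For the examined members this length was at most 3.66 times the merged length. It was greatest for MDM4, at 40.3 kilobases in place of 11.0. The deposited FPKM of MDM4 was 4.01 in the ZNF582 library, against 1.3 in the control library, lower than that of AEN at 7.73 in the ZNF582 library, against 5.40 in the control library. Per kilobase of merged exons MDM4 and AEN were nearly equal in the ZNF582 library, at 15.2 and 15.5. Ratios between libraries are not touched, since the same length divides both.

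Some members' counts are less certain because their exons overlap other genes. Exonic overlap with another listed gene applied to 9 of the 31 examined members (29%), against 39.5% of all examined genes. These were BTG1, KITLG, MDM2, PHLDA3, PLK3, POLH, SESN1, TP53I3 and XPC. Of the 50-base words in annotated transcripts of TIGAR, 44.6% also occurred in transcripts of other genes, nearly all in AC008012.1, and for XPC the share was 22.4%. MDM4 shared 1.13% and FDXR 0%.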

How the data were processed

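RNA from 2 libraries of HN6 cells, 1 of ZNF582-overexpressing cells and 1 of control cells, was examined. Per the labels' protocols, libraries were made from total RNA with the VAHTS Universal V6 kit. Per the submitters' processing notes, HISAT2 2.0.4, StringTie 1.3.0 and GRCh38 were used. No source used here names the counting program, its use of strand or the annotation release. The authors deposited counts and FPKM for each gene, per the file headers. The deposited counts were treated as estimated counts, although each was a whole number. The deposited fold changes and p-values were not used. 1 record broken over 2 lines was rejoined.

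Counts were scaled by library total and TMM factors (0.962 for the ZNF582 library, 1.04 for the control library) from edgeR 4.0.16 in R 4.3.3, over genes with at least 20 counts. A gene was called at 2-fold with an exact 95% Clopper-Pearson interval, conditional on the sum of both counts, that excluded 1. Pair ratios carry exact conditional odds ratio intervals from scipy 1.17.1. Exons and transcripts were taken from GENCODE 29, and the listed span equalled that in GENCODE for 31 of 32 members, MDM2 being the exception. The calling rule was run on simulated counts that varied by counting error alone, with the scaling known. That run cannot check differences between cultures or errors of scaling. Alternatives were scaling by library totals, DESeq2 1.42.0 size factors, TMM without ZNF582, other count minimums, a 1.5-fold rule, deposited FPKM with a pseudocount of 0.1 or 1, and leaving out genes with exonic overlap. All members are accounted for, and of the other pathway lists the called genes with at least 100 counts were named, besides well-known genes and cell type markers chosen after their values were seen. The members and lists were chosen with earlier results of these data known. Levels per merged kilobase, shared words and promoter searches were added after the data were seen.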

Additional observations from a re-analysis of the deposited data

How the results depend on the processing

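MDM4 was higher by the 2-fold rule under every alternative run, with a log2 fold between 1.12 (deposited FPKM, pseudocount 1) and 1.74. FDXR was lower under all of them except deposited FPKM with pseudocount 1, where its log2 fold was -0.58 and 0 members were lower, since a pseudocount of 1 exceeds its deposited FPKM in the ZNF582 library. At 1.5-fold, with TMM factors kept, 7 members were higher and 3 lower, and among all genes 1650 and 1823. The members' split at 1.5-fold changed under library totals alone, as given above. With deposited FPKM and pseudocount 1, without intervals, 153 genes were higher and 158 lower. With at least 100 counts 395 were higher and 352 lower, and without genes with exonic overlap 431 were higher, fewer genes being examined in each case. Dividing by total counts without TMM factors moved the median of all genes by over 0.1 to -0.12 on the log2 scale, called 565 genes higher and 1097 lower (a share of higher calls of 34%, against 45.9%), and turned the sign of CDKN1A, PHLDA3, TP53INP1 and TRIAP1. DESeq2 size factors and leaving ZNF582 out of the TMM fit left all 31 members within their intervals. No paired analysis was possible because each group had 1 library. Depth limits GDF15 and TP53INP1 most.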
